A study of Mus musculus with 50 samples.

Results

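The 38 genes described here encode proteins of DNA replication, from the factors that license origins to those that supply nucleotides and repackage the copied DNA. They were taken from a list of gene names that was drawn up with earlier results of these data known, with no threshold on a measured value, and all 38 were found among the 48526 genes of the count table. Their levels were followed in 50 RNA-seq libraries of microglia, the resident macrophages of the brain, sorted by flow cytometry (FACS) from mice with loxP sites at both alleles of Hdac1 and Hdac2 (HDAC1/2-loxP/loxP), genes of 2 histone deacetylases. Constitutive knockouts carried CX3CR1-Cre in addition, had no treatment, and were sampled as neonates at P0 (3 libraries), at 14 days (called 2 weeks, 2 libraries) and at 45 days (called 6 weeks, 3 libraries). Their controls had the same loxP alleles, no Cre and no treatment (4 libraries at P0, 4 at 2 weeks and 4 at 6 weeks). Inducible knockouts carried CX3CR1-CreERT2, a Cre that needs tamoxifen, and were sampled on embryonic day 16 (E16, 3 libraries), at P0 (4), at 2 weeks (4) and at 6 weeks (4). Their controls had the loxP alleles and no Cre (4, 3, 4 and 4 libraries at the same ages). Dams of inducible knockouts and of their controls were given 3 mg tamoxifen together with progesterone on embryonic day 13. The groups of a model differed in Cre as well as in the deletion, so the effects of these cannot be told apart. The Cx3cr1 promoter that drives both Cre forms is active in microglia and also in other cells of the macrophage and monocyte lineage, and each library carried a different animal number within its group.

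A cell copies its DNA once per division. In G1 the origin recognition complex, with Cdc6 and Cdt1, loads the MCM ring onto origins, and in S phase Cdc45 and the GINS complex turn that ring into the moving helicase, which DNA polymerases, the PCNA clamp and its loader follow. Most of these genes are transcribed around the entry into S phase under E2F factors, so their RNA is high in tissues whose cells divide, and microglia are known to multiply before and shortly after birth and to divide rarely in the adult brain.

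Library totals ran from 11050277 to 29651179 counts, and levels are given in CPM (a gene's counts relative to the total of its library). A gene was called higher or lower when edgeR's quasi-likelihood test across all genes gave an adjusted p under 0.05. The ± after a log2 change is a standard error (SE) derived from that test, the size of the change over the square root of its F statistic. The targeted genes did not fall in every knockout group. Hdac2 was called lower in constitutive knockouts at 6 weeks (-1.28 ± 0.25 on the log2 scale), and in the inducible model at P0 (-1.19 ± 0.16), 2 weeks (-1.42 ± 0.10) and 6 weeks (-1.28 ± 0.12). It missed the threshold at E16 (-0.20 ± 0.47) and, in the constitutive model, at P0 (-0.29 ± 0.18) and 2 weeks (-0.24 ± 0.23). Hdac1 was not called in any knockout comparison, with log2 changes of 0.21 ± 0.42, -0.56 ± 0.24 and 1.21 ± 0.88 in constitutive knockouts at P0, 2 and 6 weeks and of -0.74 ± 0.19, -0.68 ± 0.23, -0.43 ± 0.14 and -0.41 ± 0.17 in inducible knockouts at E16, P0, 2 and 6 weeks. Some single libraries went against their label. The library labelled constitutive knockout 68 (P0) held Hdac1 at 35.7 CPM and that labelled constitutive knockout 380 (6 weeks) at 92.2 CPM, against 11.4 to 13.6 and 13.4 to 16.6 CPM in controls of those ages. The library labelled inducible knockout 1 (E16) held Hdac2 at 316 CPM, against 133 to 165 CPM in controls. Of the 2 constitutive knockouts at 2 weeks, Hdac2 was 70.1 CPM in the library labelled knockout 89 and 40.99 CPM in knockout 80, against 59.8 to 71.3 CPM in controls, so knockout 89 lay within the controls. At P0 the library labelled constitutive knockout 68 held Hdac2 at 190.5 CPM, above the controls (126 to 164 CPM). Without knockout 68 Hdac1 (log2 change -0.74 ± 0.26, adjusted p = 0.0455) and Hdac2 (-0.50 ± 0.17, adjusted p = 0.0433) were called lower at P0, and without inducible knockout 1 Hdac2 was called lower at E16 (-1.16 ± 0.11, adjusted p = 0.00342). Both libraries were singled out for high levels of these same genes, and leaving them out lowers the knockout mean. These calls are therefore no separate test of the deletion. The deleted exons are not named in the labels, and counts can come from exons outside them. Markers of microglia were detected in every group, 12 of 12. Among them is Cx3cr1, the gene whose promoter drives both Cre forms, and it is part of the summed levels of this list.

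**Figure D1:**
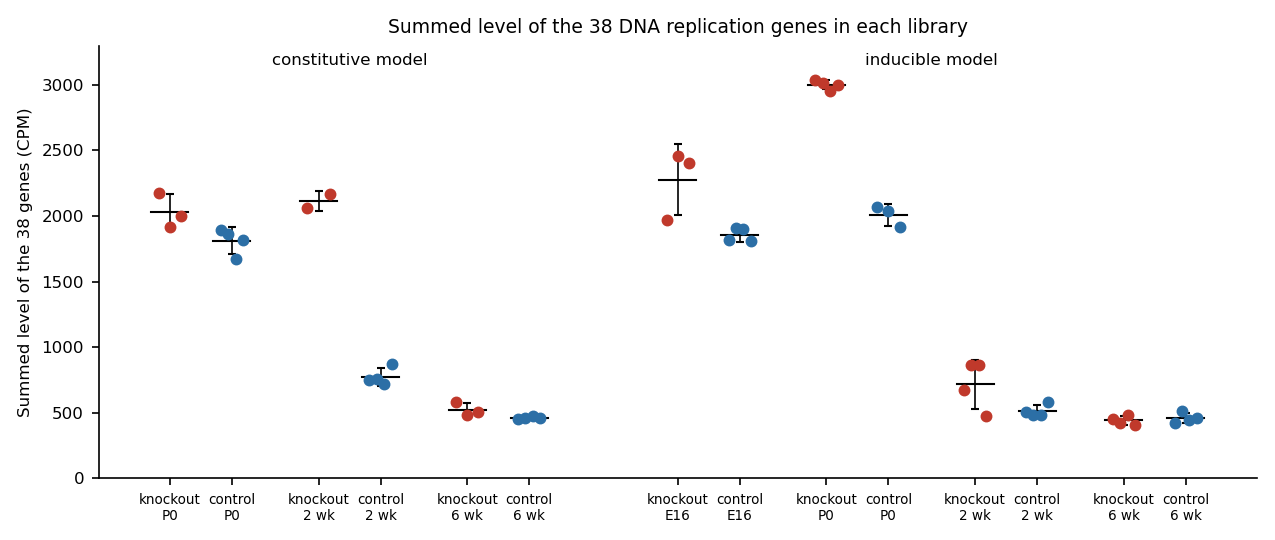
Summed level of the 38 DNA replication genes (CPM, vertical axis) in each of the 50 libraries by group, with each library as a point and mean ± SD as bars (red knockout, blue control). Constitutive knockouts at 2 weeks (2060 to 2166 CPM) and inducible knockouts at P0 (2953 to 3038 CPM) lay furthest above their controls (718 to 869 and 1913 to 2071 CPM).

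In control microglia the replication genes declined with age after birth. In bulk RNA of sorted cells, fewer dividing cells and less of these RNAs in each cell cannot be told apart, here or in the knockouts. Their summed level in constitutive controls was 1670 to 1897 CPM at P0, 718 to 869 at 2 weeks and 455 to 472 at 6 weeks. In inducible controls it was 1806 to 1908 CPM at E16, 1913 to 2071 at P0, 482 to 579.5 at 2 weeks and 420.5 to 513 at 6 weeks. At 2 weeks against P0, 32 of the 38 genes fell in constitutive controls and none rose (median log2 change -0.99, against -0.07 over all genes, of which 36.6% fell and 26.7% rose). In inducible controls all 38 fell over the same span (median -1.70, against -0.06 over all genes, of which 32.7% fell and 21.9% rose). The 6 genes not called in constitutive controls were Gins3, Gins4, Pola2, Pold1, Pcna and Tk1. At 6 weeks against 2 weeks, 25 of 38 fell in constitutive controls (median -0.88, all genes 0.01, of which 8.93% fell and 8.8% rose) and 8 in inducible controls (median -0.36, all genes 0.00, of which 8.98% fell and 8.13% rose), and none rose in either. Between P0 and E16 none of the 38 was called in inducible controls by edgeR, with 4 at an unadjusted p under 0.05 and 0 by DESeq2, in a comparison that called 0.0464% of all genes higher and 0.0116% lower.

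Markers of several cell types moved with age in the same controls, with summed levels in CPM given for 2 weeks against P0. In constitutive controls at 2 weeks against P0, 12 of 12 microglia markers were called higher, with a sum of 55820 to 61580 at 2 weeks against 21710 to 25680 at P0. Border macrophage markers were called lower in 5 of 5 (100 to 157 at 2 weeks against 1269 to 2000 at P0), monocyte markers in 4 of 5 (16.6 to 73.2 at 2 weeks against 798 to 1040 at P0), erythroid markers in 5 of 6 tested (33.2 to 55.03 at 2 weeks against 595 to 1092 at P0), neural progenitor markers in 8 of 8 (8.24 to 20.6 at 2 weeks against 411 to 876 at P0) and neuron markers in 6 of 6 (2.75 to 3.58 at 2 weeks against 595 to 1281 at P0). In inducible controls 11 of 12 microglia markers were called higher (56030 to 58570 at 2 weeks against 22850 to 25690 at P0), and border macrophage (5 of 5, 77.3 to 116 against 2061 to 7648), monocyte (5 of 5, 34.2 to 37.6 against 1022 to 4957), neutrophil (9 of 9 tested), erythroid (5 of 5 tested, 32.3 to 49.95 against 373 to 730), neural progenitor (8 of 8, 6.52 to 10.6 against 158 to 249.8) and neuron markers (6 of 6) lower. At 6 weeks against 2 weeks fewer of these markers were called, among them 3 of 4 erythroid markers tested lower in constitutive controls and 7 of 7 neutrophil markers tested higher in inducible controls. The part of these cells in the levels of the replication genes was not tested.

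Rrm2, the small subunit of ribonucleotide reductase, which makes deoxynucleotides, had the smallest adjusted p in each of the 4 postnatal age comparisons. It averaged 105 ± 14.3 CPM in constitutive controls at P0, 21.8 ± 2.02 at 2 weeks and 1.86 ± 0.572 at 6 weeks (SD, n = 4 at each age). Its log2 change was -1.98 ± 0.12 at 2 weeks against P0 (edgeR adjusted p = 7.87e-09) and -3.61 ± 0.21 at 6 weeks against 2 weeks (adjusted p = 8.42e-08). In inducible controls these were -3.40 ± 0.16 (adjusted p = 3.03e-08) and -2.79 ± 0.36 (adjusted p = 7.37e-05). From P0 on, libraries of neighbouring ages did not overlap for Rrm2 in either model. The other genes with the smallest adjusted p in constitutive controls at 2 weeks against P0 were Rrm1, the large subunit of that enzyme (-1.33 ± 0.10), thymidylate synthase Tyms (-1.15 ± 0.10), the helicase ring subunit Mcm6 (-1.50 ± 0.14) and the licensing inhibitor geminin, Gmnn (-1.64 ± 0.15). In inducible controls they were Rrm1 (-2.17 ± 0.14), the primase catalytic subunit Prim1 (-2.17 ± 0.15), DNA ligase 1, Lig1 (-2.19 ± 0.17), and Tyms (-1.79 ± 0.14). From 2 to 6 weeks they were the catalytic subunit of polymerase epsilon, Pole (-3.22 ± 0.24), with Mcm6 (-2.70 ± 0.21), Mcm2 (-1.50 ± 0.18) and Mcm5 (-1.29 ± 0.16) in constitutive controls, and Pole (-1.76 ± 0.35), Ccne2 (-1.01 ± 0.23), Mcm5 (-0.88 ± 0.21) and the helicase activator Mcm10 (-2.31 ± 0.64) in inducible controls. The fall was not even over the list. At 2 weeks against P0 the smallest called change in inducible controls was -0.52 ± 0.12 for Gins4, a GINS subunit, and the largest -3.93 ± 0.32 for Cdc6, a loader of the MCM ring. At 6 weeks Mcm3 still had 62.1, 62.8, 51.5 and 62.3 CPM in constitutive controls, and Cdc6 had 0, 3, 1 and 2 reads. Per length (RPKM, mean over the 50 libraries) the levels of the list ran from 0.931 for Fen1 and 1.28 for Orc1 to 26.4 for Mcm3 and 30 for Gins4. The place of Fen1 is uncertain, since 84.2% of its exon bases are shared with other genes.

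**Figure D2:**
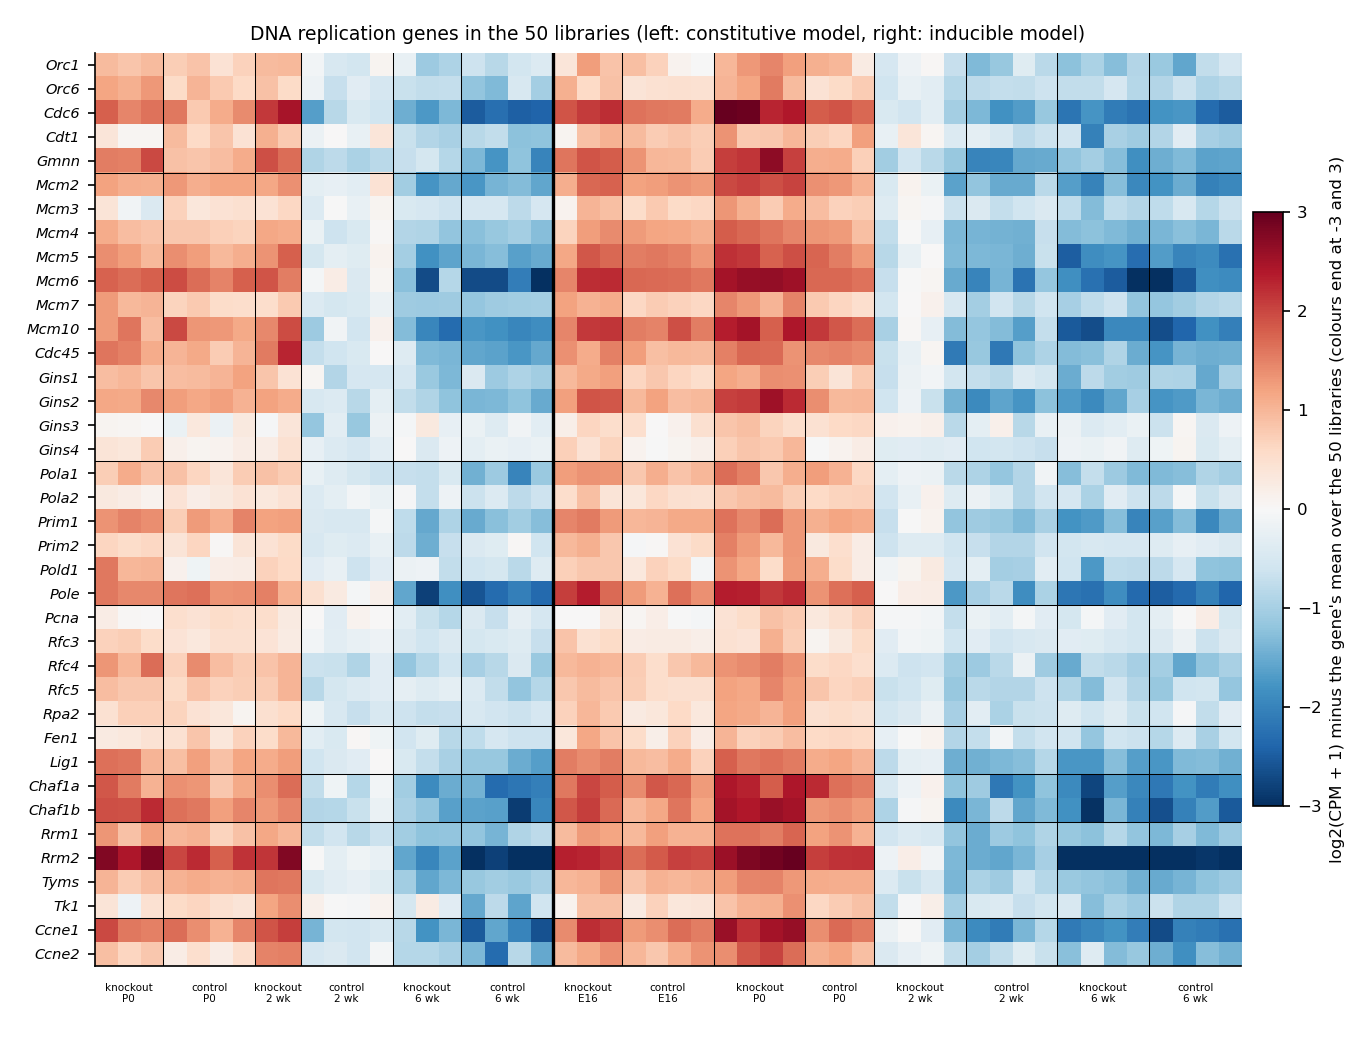
Level of the 38 replication genes (rows, in the order of their roles) in the 50 libraries (columns, by group), as log2(CPM + 1) minus the gene's mean over the 50 libraries, with colours ending at -3 and 3. Prenatal and newborn libraries lie above the gene means and 6-week libraries below them, and the 2 constitutive knockouts at 2 weeks are close in colour to the newborn libraries.

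The largest knockout effect on these genes was in the constitutive model at 2 weeks. There 37 of the 38 genes were called higher and none lower. In all 38 both knockout libraries lay above all 4 controls, a gap that was not counted over all genes. The median log2 change was 1.45, against 0.00 over all 15017 genes tested, of which 24.4% were called higher and 17.8% lower. The summed level was 2060 and 2166 CPM in the 2 knockouts and 718 to 869 CPM in controls, and constitutive controls at P0 had 1670 to 1897 CPM. Gins3, the remaining gene and a GINS subunit, had 10.4 and 14.02 CPM in knockouts and 4.22, 8.40, 4.33 and 9.34 CPM in controls (log2 change 0.92 ± 0.37, adjusted p = 0.0704). With either knockout or any control left out, 34 to 37 of the genes were called higher. The library labelled knockout 89, whose Hdac2 lay within the controls, is 1 of the 2 knockouts. A fit without either knockout leaves 1 knockout library, which is assumed to vary like the controls. The share of all genes called in the fits with a library left out is not given.

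Among the licensing factors Gmnn (GRCm38 chromosome 13, 24751845 to 24761923, minus strand), which blocks Cdt1 until the next division, had the smallest adjusted p of the list. It had 57.4 and 48.5 CPM in constitutive knockouts at 2 weeks and 7.22, 7.89, 7.03 and 7.72 CPM in controls, 7.05-fold higher (log2 change 2.82 ± 0.15, edgeR adjusted p = 2.52e-06). Cdc6 (chromosome 11, 98907801 to 98923940, plus strand) had 23.7 and 30.4 CPM in knockouts and 0.814, 2.19, 3.14 and 2.76 CPM in controls. That was the largest change of the list, 12.4-fold (log2 change 3.63 ± 0.42, adjusted p = 0.00019), on 414 and 688 reads in knockouts and 16 to 50 in controls. Orc6, the smallest subunit of the origin recognition complex, had 50.03 and 40.8 CPM in knockouts and 24.1, 16.2, 20.96 and 18.7 CPM in controls (log2 change 1.17 ± 0.18). All 5 licensing genes were called higher, and Cdt1, the partner of Cdc6 in loading, changed least (0.95 ± 0.20).

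Of the 12 helicase genes 11 were called higher. Mcm6 (chromosome 1, 128331590 to 128359664, minus strand) had 198 and 156 CPM in knockouts and 51.1, 61.8, 39.04 and 55.01 CPM in controls (log2 change 1.77 ± 0.16). Mcm3, another subunit of the same ring, had 121 and 137 CPM in knockouts and 66.7, 88.7, 76.5 and 94.8 CPM in controls (log2 change 0.67 ± 0.17). The 6 subunits of the MCM ring, which assemble in equal numbers, had changes between 0.67 (Mcm3) and 1.90 (Mcm5). Cdc45, the helicase partner loaded when origins fire, and Mcm10 changed by 2.62 ± 0.30 and 2.35 ± 0.39, the largest of this role.

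Polymerase, clamp and ligation genes were called higher too, with Pcna and Pola2 among the smaller changes. Pola1, the catalytic subunit of the polymerase alpha that starts each strand, had 40.99 and 38 CPM in knockouts and 18.7, 16.5, 14.9 and 13.7 CPM in controls (log2 change 1.30 ± 0.17), and its partner Pola2 had 34.3 and 37.8 CPM in knockouts and 20.4, 22.1, 25.98 and 23.7 CPM in controls (log2 change 0.65 ± 0.17). Pcna, the sliding clamp (chromosome 2, 132249162 to 132253314, minus strand), had 63.6 and 53.2 CPM in knockouts and 44.6, 34.6, 47.3 and 44.2 CPM in controls. Its log2 change of 0.44 ± 0.15 (adjusted p = 0.0434) was the smallest called. Lig1, which joins Okazaki fragments, had 61.8 and 68.4 CPM in knockouts and 17.9, 20.3, 21.6 and 28.3 CPM in controls (log2 change 1.57 ± 0.19). All 6 primase and polymerase genes, all 5 clamp, clamp loader and RPA genes and both of flap removal and ligation were called higher, with medians of 1.10, 1.00 and 1.49.

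Nucleotide supply, chromatin assembly and cyclin E genes had the highest medians, at 1.88, 2.20 and 2.53 over 4, 2 and 2 genes, all called higher. Rrm1 (chromosome 7, 102441695 to 102469771, plus strand) had 185 and 167 CPM in knockouts and 49.6, 55.7, 46.3 and 52.2 CPM in controls (log2 change 1.78 ± 0.11, edgeR adjusted p = 5.21e-06). Rrm2 (chromosome 12, 24708241 to 24714146, plus strand) had 112 and 173 CPM in knockouts and 24.4, 19.7, 22.3 and 20.8 CPM in controls, 6.62-fold higher (log2 change 2.73 ± 0.20, adjusted p = 1.48e-05). Tyms (chromosome 5, 30058202 to 30073617, minus strand) had 107 and 105 CPM in knockouts and 24.7, 27.5, 28.7 and 26.6 CPM in controls (log2 change 1.98 ± 0.13, adjusted p = 6.25e-06). Both knockout libraries stood far above the controls in these 3 genes, with little spread for Rrm1 and Tyms and more for Rrm2. Chaf1b, a subunit of the chromatin assembly factor that places histones behind the fork, had 21.96 and 24.9 CPM in knockouts and 4.07, 4.20, 4.90 and 7.23 CPM in controls (log2 change 2.21 ± 0.27). Ccne2, a cyclin E that drives entry into S phase with Cdk2, had 42.9 and 43.7 CPM in knockouts and 9.91, 10.5, 9.48 and 13.8 CPM in controls (log2 change 1.99 ± 0.19). The other cyclin E, Ccne1, changed by 3.06 ± 0.33.

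**Figure D3:**
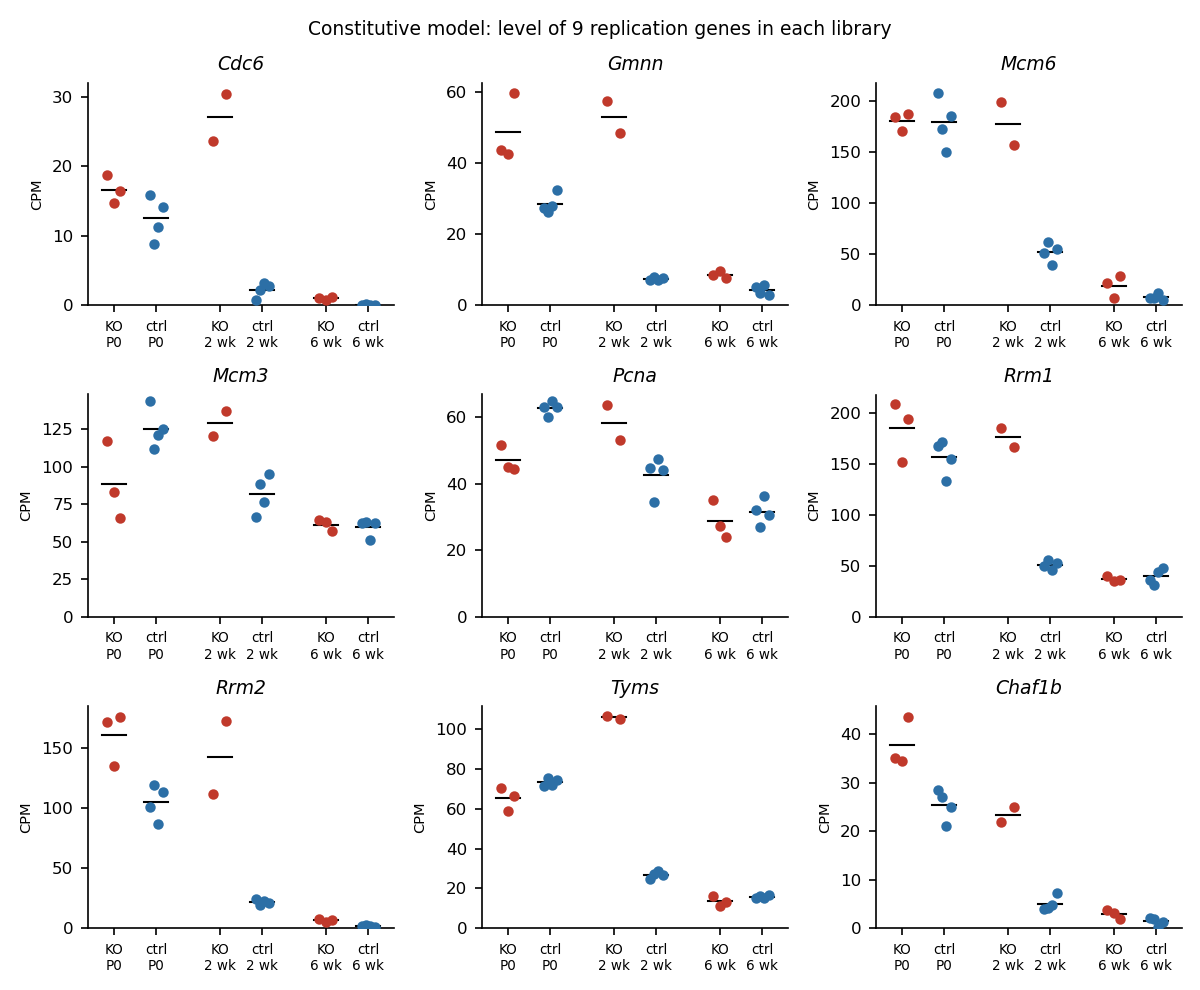
Level (CPM, vertical axes starting at 0) of 9 replication genes in each library of the constitutive model at P0, 2 and 6 weeks, with knockouts (red) left of controls (blue) and lines at the group means. At 2 weeks the 2 knockout points lie above the 4 control points in each panel, with Gmnn at 57.4 and 48.5 CPM against 7.03 to 7.89 CPM.

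Markers of other cells moved with this group. The neutrophil markers were called higher in constitutive knockouts at 2 weeks, 10 of 10, with a sum of 17160 and 48950 CPM in knockouts 80 and 89 and 106 to 784 CPM in controls. Monocyte markers (5 of 5 higher, 1476 to 3700 CPM in knockouts and 16.6 to 73.2 CPM in controls) and border macrophage markers (5 of 5 higher, 1688 to 2341 CPM in knockouts and 100 to 157 CPM in controls) did the same, while 9 of 12 microglia markers were lower and 1 higher (18040 to 24930 CPM in knockouts and 55820 to 61580 CPM in controls). None of these markers was at 0 in every library of either group. Mpo, which is made by dividing neutrophil precursors, had 57.5 and 106 CPM in knockouts and 0.305, 0.288, 3.33 and 4.79 CPM in controls. The summed replication genes of knockouts 80 and 89 were 2060 and 2166 CPM. The part of these cells in the rise of the replication genes was not tested. Of the markers of erythroid cells and neural progenitors none was called higher, with sums of 33.9 to 38.4 and 14.6 to 16.9 CPM in knockouts against 33.2 to 55.03 and 8.24 to 20.6 CPM in controls, and Slc4a1, an erythroid anion exchanger, was at 0 in both knockouts.

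At P0 the constitutive knockouts did not show this rise. In the edgeR fit 8 of the 38 genes were called lower and 1 higher, with a median log2 change of -0.12 against 0.04 over all 18411 genes tested, of which 21.4% were called higher and 20.2% lower, so both shares of the list lay near or under those of all genes. The direction depended on the scaling. The TMM factors, which edgeR uses to correct library totals for composition, were 1.13 to 1.19 in the knockouts and 0.864 to 0.952 in the controls, and with library totals alone (a setting chosen after seeing the data) 6 of the genes were called higher and 3 lower, while the median over all genes was 0.40. The summed CPM, which uses library totals, was 1916 to 2178 in knockouts and 1670 to 1897 in controls.

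Pcna had 51.7, 45.2 and 44.5 CPM in constitutive knockouts at P0 and 63.01, 60.1, 64.8 and 63.05 CPM in controls (log2 change -0.77 ± 0.13, edgeR adjusted p = 0.00095). Every knockout was below every control, as was also the case for Cdt1 and Tyms. Cdt1 had 18.4, 14.6 and 14.5 CPM in knockouts and 27.9, 21.6, 25.6 and 19.2 CPM in controls (log2 change -0.94 ± 0.21, adjusted p = 0.00468). Tyms had 70.5, 58.8 and 66.5 CPM in knockouts and 71.5, 75.3, 71.7 and 74.4 CPM in controls (log2 change -0.52 ± 0.12, adjusted p = 0.0063). For Mcm3 (117, 82.9 and 65.7 CPM in knockouts and 143, 112, 121 and 125 CPM in controls, log2 change -0.86 ± 0.19, adjusted p = 0.00439) the groups overlapped. The other calls were Mcm2 (-0.43 ± 0.12), Pola2 (-0.49 ± 0.15), the salvage kinase for thymidine Tk1 (-0.63 ± 0.20) and the GINS subunit Gins1 (-0.47 ± 0.17). Pold1, the catalytic subunit of polymerase delta (chromosome 7, 44532746 to 44548849, minus strand), went the other way. It had 55.3, 36.6 and 37.1 CPM in knockouts and 19.7, 16.3, 20.7 and 21.1 CPM in controls (log2 change 0.79 ± 0.20, adjusted p = 0.00972), and without the library labelled knockout 68 it was not called. Without knockout 73, 4 genes were called lower, and without control 69, 5, given without the share of all genes called.

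The other genes with the highest mean CPM of their role were not called at P0, apart from Pola2, and their CPM carry no TMM factor. Orc6 had 62.8, 57.05 and 68.1 CPM in knockouts and 40.9, 56.02, 47.2 and 41.3 CPM in controls. Chaf1b had 35.01, 34.4 and 43.6 CPM in knockouts and 28.5, 27.1, 21.1 and 24.9 CPM in controls. Ccne2 had 27.9, 23.2 and 26.3 CPM in knockouts and 17.1, 21.1, 17.2 and 21.1 CPM in controls. The knockouts lay above all controls in these 3. Mcm6 had 184, 170.3 and 187 CPM in knockouts and 207, 172, 150.1 and 185 CPM in controls. Pola1 had 37.6, 48.3 and 40.8 CPM in knockouts and 41.1, 34.97, 28.4 and 38.04 CPM in controls. Pola2 had 34.1, 32.2 and 29.5 CPM in knockouts and 36.6, 31.8, 34.2 and 37.5 CPM in controls. For Mcm6 and both polymerase alpha subunits the groups overlapped. Lig1 had 89.4, 86.3 and 57.5 CPM in knockouts and 52.6, 66.6, 51.9 and 64.3 CPM in controls. Rrm1 had 209, 152 and 194 CPM in knockouts and 167, 172, 133 and 154 CPM in controls. The groups overlapped for these as well. Markers of many cell types moved with the knockouts at P0. All 12 microglia markers were lower (1695 to 4560 CPM in knockouts and 21710 to 25680 CPM in controls), and the called markers of neutrophils (10 of 10, 6776 to 9664 CPM in knockouts and 548 to 1380 CPM in controls), erythroid cells (8 of 8, 2238 to 2949 CPM in knockouts and 595 to 1092 CPM in controls), neural progenitors (7 of 8, 1563 to 2054 CPM in knockouts and 411 to 876 CPM in controls) and neurons (6 of 6, 2037 to 2616 CPM in knockouts and 595 to 1281 CPM in controls) were higher. None of these markers was at 0 in every library of a group, and their part in the levels of the replication genes was not tested.

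At 6 weeks 3 of the 38 genes were called higher in constitutive knockouts. They were Cdc6, Gmnn and Rrm2, and none was called lower (median log2 change 0.21, all genes -0.01, of which 6.76% were called higher and 5.24% lower). The share of the list called higher thus lay near that of all genes. Rrm2 had 7.64, 5.58 and 7.29 CPM in knockouts and 1.94, 2.63, 1.56 and 1.32 CPM in controls (log2 change 1.84 ± 0.32, edgeR adjusted p = 0.00244). Gmnn had 8.54, 9.76 and 7.55 CPM in knockouts and 5.06, 3.55, 5.64 and 2.88 CPM in controls (log2 change 0.96 ± 0.28, adjusted p = 0.0479). Cdc6 had 13, 13 and 19 reads in knockouts and 0, 3, 1 and 2 in controls (log2 change 3.62 ± 0.75, adjusted p = 0.00762), so few that the fitted size depends on edgeR's prior count. In all 3 genes every knockout was above every control, and for Rrm2 every knockout was below every control of 2 weeks. Prim2, the large primase subunit, was below all controls (12.2, 7.20 and 12.9 CPM in knockouts and 15.8, 16.6, 22.2 and 13.9 CPM in controls) without a call (log2 change -0.73 ± 0.24, adjusted p = 0.0829).

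The genes with the highest mean CPM of their role were not called at 6 weeks. Pola1 had 13.3, 12.9 and 15.8 CPM in knockouts and 7.50, 9.84, 4.83 and 9.55 CPM in controls. Lig1 had 19.9, 16.6 and 13.7 CPM in knockouts and 12.1, 12.1, 9.30 and 8.19 CPM in controls. Knockouts were above all controls for this polymerase and this ligase gene. Orc6 had 16.7, 15.8 and 16.1 CPM in knockouts and 11.2, 10.2, 18.99 and 12.8 CPM in controls. Mcm6 had 21.7, 7.42 and 28.7 CPM in knockouts and 7.38, 7.46, 11.9 and 5.67 CPM in controls. Mcm3 had 64.3, 62.8 and 56.99 CPM in knockouts and 62.1, 62.8, 51.5 and 62.3 CPM in controls. The groups overlapped for these licensing and helicase genes. Pola2 had 26.9, 16.4 and 24.6 CPM in knockouts and 17.2, 20.5, 15.6 and 17.6 CPM in controls. Pcna had 35.1, 27.3 and 23.9 CPM in knockouts and 32.1, 27.02, 36.5 and 30.6 CPM in controls. Chaf1b had 3.78, 3.12 and 2.02 CPM in knockouts and 2.06, 2.02, 0.311 and 1.40 CPM in controls. They overlapped here as well, with Chaf1b low in all libraries. Rrm1 had 39.5, 35.4 and 35.8 CPM in knockouts and 35.6, 31.1, 44.1 and 47.6 CPM in controls. Ccne2 had 7.56, 7.64 and 6.90 CPM in knockouts and 5.13, 2.14, 7.71 and 4.39 CPM in controls. Here too the ranges met. The library labelled knockout 380, which held Hdac1 at 92.2 CPM, had the lowest Mcm6 of the 3 knockouts. Without that library Cdc6, Rrm2 and Mcm6 were called, Mcm6 with a log2 change of 1.59 ± 0.28 (adjusted p = 0.00567), while 4.48% of all genes were higher and 3.35% lower. Leaving out the knockout with the lowest Mcm6 raises that change, so the call of Mcm6 is no separate support. Neutrophil markers were called higher in 7 of 7 tested (2132 to 4769 CPM in knockouts and 393 to 668 CPM in controls) and microglia markers lower in 5 of 12 (34520 to 47400 CPM in knockouts and 56280 to 57310 CPM in controls). Border macrophage markers were called higher in 3 of 5 (535 to 736 CPM in knockouts and 25.3 to 46.8 CPM in controls) and monocyte markers in 1 of 5 (146 to 709 CPM in knockouts and 50.5 to 119.7 CPM in controls). The summed levels of these 4 lists did not overlap between the groups, and their part was not tested. DESeq2 called 7 replication genes higher and 1 lower at this age, and with 1 library left out edgeR called 2 or 3 higher. The share of all genes that DESeq2 called is not given, so its count has no background here.

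In the inducible model the genes were called at P0. There 18 of 38 were higher and none lower, and all 38 had positive changes. In 26 every knockout lay above every control, a gap that was not counted over all genes. The median log2 change was 0.53 against -0.01 over all 17573 genes tested, of which 6.81% were called higher and 3.56% lower. The summed level was 2953 to 3038 CPM in knockouts and 1913 to 2071 CPM in controls. With 1 library left out the number was 9 to 17, the lowest without control 55, and in a fit of all 50 libraries it was 8. These counts are given without the share of all genes called in each fit.

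Chaf1b (chromosome 16, 93883901 to 93906115, plus strand) had 51.5, 48.6, 55.8 and 52.1 CPM in inducible knockouts at P0 and 22.5, 23.7 and 21.7 CPM in controls (log2 change 1.21 ± 0.15, edgeR adjusted p = 0.00107). Mcm6 had 305, 332, 336 and 314 CPM in knockouts and 178, 176 and 167 CPM in controls (log2 change 0.90 ± 0.13, adjusted p = 0.0025). Gmnn had 63.6, 67.5, 98.6 and 62.97 CPM in knockouts and 32, 32.5 and 24.4 CPM in controls (log2 change 1.31 ± 0.21, adjusted p = 0.00348), the largest change of the list. In these 3 genes the groups were far apart. Prim2 had 63, 53.7, 43.4 and 54.2 CPM in knockouts and 26.5, 31.1 and 25.3 CPM in controls (log2 change 0.96 ± 0.17, adjusted p = 0.00498). Orc6 had 55.6, 62.1, 80.7 and 52.9 CPM in knockouts and 36.5, 40.6 and 46.3 CPM in controls (log2 change 0.63 ± 0.18). Lig1 had 98.8, 85.9, 89.5 and 84.2 CPM in knockouts and 60.98, 64.3 and 57.4 CPM in controls (log2 change 0.57 ± 0.13). Every knockout was above every control in these 3 as well. Ccne2 had 39.98, 55.5, 62.03 and 48.3 CPM in knockouts and 31.3, 34.3 and 28.1 CPM in controls (log2 change 0.74 ± 0.19). Its knockouts too were above all controls.

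The other genes with the highest mean CPM of their role were not called at P0 in the inducible model. Mcm3 had 224, 188, 153 and 193 CPM in knockouts and 169, 144 and 149.5 CPM in controls. Pola1 had 72.3, 64.9, 38.99 and 48.1 CPM in knockouts and 53.4, 46.5 and 34.3 CPM in controls. Pcna had 59.7, 65.05, 80.97 and 76.1 CPM in knockouts and 54.6, 61.9 and 71.8 CPM in controls. The groups overlapped in these 3. Pola2 had 49.2, 52.5, 54.1 and 46.9 CPM in knockouts and 42.3, 44.2 and 45.2 CPM in controls. Rrm1 had 258, 259, 243 and 281 CPM in knockouts and 191, 211 and 172 CPM in controls (log2 change 0.46 ± 0.14, edgeR adjusted p = 0.0559). Every knockout was above every control for Pola2 and Rrm1. By role, 3 of 5 licensing genes, 5 of 12 helicase genes, 2 of 6 primase and polymerase genes, 3 of 5 clamp, clamp loader and RPA genes, 1 of 2 of flap removal and ligation, 1 of 2 of chromatin assembly, 1 of 4 of nucleotide supply and 2 of 2 cyclin E genes were called. Of the markers of other cells, 0 of 10 neutrophil, 0 of 5 monocyte, 0 of 5 border macrophage, 0 of 8 erythroid and 0 of 8 neural progenitor markers were called at this age, with sums of 1002 to 5516, 3114 to 6972, 5371 to 8819, 286 to 458 and 134 to 235 CPM in knockouts and 877 to 3390, 1022 to 4957, 2061 to 7648, 373 to 730 and 158 to 249.8 CPM in controls. Of the microglia markers 6 of 12 were lower (12360 to 16070 CPM in knockouts and 22850 to 25690 CPM in controls), and their part was not tested.

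At E16 no replication gene was called by edgeR, and no gene of all 17594 tested (0% called). At an unadjusted p under 0.05 there were 12 of the 38, DESeq2 called 0 of the 38 and 680 genes in all, and 33 of the 38 changes were positive (median log2 change 0.26, all genes 0.12). The summed level was 1969 to 2456 CPM in knockouts and 1806 to 1908 CPM in controls. Every knockout lay above every control in 19 of the genes, a gap that was not counted over all genes. These CPM carry no TMM factor, which was 0.977 to 1.161 in knockouts and 0.926 to 1.003 in controls. The library labelled inducible knockout 1 stood apart, with erythroid markers at 12240 CPM and neural progenitor markers at 2706 CPM, against 1084 to 1403 and 220.3 to 859 CPM in controls. The part of these cells in its levels was not tested. Without it 3 replication genes were called higher, Mcm2 (log2 change 0.44 ± 0.09, adjusted p = 0.035), Mcm6 (0.52 ± 0.09, adjusted p = 0.0287) and Gins2 (0.84 ± 0.15, adjusted p = 0.0254), in a comparison that then called 2.31% of all genes higher and 1.24% lower. With all libraries their changes were 0.20, 0.25 and 0.60, and the library was set apart after its values were seen.

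Mcm6 had 147, 249 and 254 CPM in the E16 knockouts, the first of them the library labelled knockout 1, and 177, 174, 173 and 161 CPM in controls. Mcm3 had 95.1, 182 and 166 CPM in knockouts and 131, 153, 134 and 138 CPM in controls. That library lay under all controls for both genes and the others above them. Orc6 had 57.8, 40.99 and 50.2 CPM in knockouts and 35.6, 37.2, 37.9 and 37.3 CPM in controls. Pola1 had 54.1, 57.9 and 56.4 CPM in knockouts and 39.05, 48.1, 40.4 and 45 CPM in controls. Lig1 had 82.98, 76.7 and 82.3 CPM in knockouts and 55.7, 54.1, 61.8 and 45.3 CPM in controls. All 3 knockouts were above all controls in these genes, as they were for Chaf1b. Chaf1b had 33.1, 38.8 and 29.5 CPM in knockouts and 17.6, 19.98, 27.7 and 20.2 CPM in controls. Pola2 had 40.3, 52.5 and 36.4 CPM in knockouts and 35.1, 43.1, 38.5 and 38.1 CPM in controls. Pcna had 44.5, 44.6 and 54.02 CPM in knockouts and 46.2, 50.7, 43.9 and 42.1 CPM in controls. For Pola2 and Pcna the groups overlapped. Rrm1 had 162, 204 and 189 CPM in knockouts and 163, 197, 172 and 173 CPM in controls. Ccne2 had 28.96, 33.4 and 39.3 CPM in knockouts and 29.98, 26.4, 32.1 and 38.3 CPM in controls. In both genes the groups overlapped.

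At 2 weeks Gmnn was the only replication gene called in inducible knockouts, although 37 of 38 changes were positive. Gmnn had 6.52, 9.28, 7.78 and 6.03 CPM in knockouts and 2.88, 2.95, 4.34 and 4.40 CPM in controls (log2 change 0.95 ± 0.23, edgeR adjusted p = 0.0427). The median of the list was 0.50 against -0.01 over all 13921 genes, of which 1.11% were called higher and 1.13% lower. The summed level was 670.5, 864.5, 863 and 474 CPM in knockouts 10, 13, 16 and 6 and 482 to 579.5 CPM in controls. Knockout 6 lay below the 4 controls and the others above them. Without knockout 6, 15 replication genes were called higher and none lower, among 3.17% of all genes higher and 3.39% lower, with Rrm2 (log2 change 1.33 ± 0.18, adjusted p = 0.000224) and Mcm2 (1.00 ± 0.18, adjusted p = 0.0031) at the smallest adjusted p. Knockout 6 was singled out for its low level of these same genes, which by itself raises the changes without it. These calls are therefore no separate support for a rise. Knockout 6 held Hdac2 at 26.4 CPM, below the other knockouts (29.4, 31.2 and 32.2 CPM). Gmnn was not called without knockout 10, 13 or 16 or without control 1, 2 or 3, and 4 genes were called without control 4. DESeq2 called 7 and the fit without a filter on low counts 13, given without the share of all genes called by each.

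Mcm6 had 32.5, 52.95, 55.3 and 17.9 CPM in inducible knockouts at 2 weeks, the last of them knockout 6, and 12.8, 19.6, 10.6 and 23.1 CPM in controls. Mcm3 had 67.5, 92.5, 86.8 and 56.9 CPM in knockouts and 65.5, 53.95, 58.1 and 65.2 CPM in controls. Orc6 had 17.4, 22.8, 21.3 and 14.5 CPM in knockouts and 15.2, 16.1, 15.7 and 17.2 CPM in controls. Knockouts other than 6 were above all controls in these 3 genes. Pola1 had 17.8, 19.5, 19.2 and 12.2 CPM in knockouts and 11.02, 9.35, 11.5 and 20.4 CPM in controls. Pcna had 42.8, 42.8, 41.7 and 26.3 CPM in knockouts and 38.2, 35.2, 42.3 and 34.8 CPM in controls. Lig1 had 15.8, 22.5, 23.4 and 9.38 CPM in knockouts and 9.64, 10.3, 10.99 and 15.1 CPM in controls. Knockout 6 was the lowest knockout in each, and the groups overlapped. Chaf1b had 3.96, 8.14, 8.91 and 1.49 CPM in knockouts and 2.61, 4.43, 2.17 and 2.75 CPM in controls. Rrm1 had 54.9, 61.7, 58.9 and 35.8 CPM in knockouts and 28.7, 38.3, 35.3 and 43.5 CPM in controls. Ccne2 had 10.4, 12.2, 13.2 and 8.26 CPM in knockouts and 6.71, 8.37, 11.1 and 8.85 CPM in controls. The same held for these. Pola2 had 18.1, 23.6, 30.2 and 20.9 CPM in knockouts and 24.1, 20.9, 14.4 and 18.2 CPM in controls. There knockout 10 was the lowest knockout. Border macrophage markers were called higher in 2 of 5 (137 to 353 CPM in knockouts and 77.3 to 116 CPM in controls) and neutrophil markers in 1 of 7 tested (129 to 330 CPM in knockouts and 122 to 209.5 CPM in controls). Of the microglia markers 1 of 12 was called lower, and their sum was below every control (47490 to 55690 CPM in knockouts and 56030 to 58570 CPM in controls). The part of these cells was not tested.

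By 6 weeks no replication gene was called in inducible knockouts by edgeR, by DESeq2 or at an unadjusted p under 0.05. Of the list 35 genes were tested, since Cdc6, Mcm10 and Ccne1 were too low, and the median was -0.06 against 0.01 over all 14217 genes, of which 0.0492% were called higher and 0.0141% lower. The summed level was 403 to 485 CPM in knockouts and 420.5 to 513 CPM in controls. Mcm3 had 51.8, 35.5, 52.2 and 47.8 CPM in knockouts and 52.4, 63.4, 48.8 and 56.6 CPM in controls. Mcm6 had 14.2, 10.4, 8.56 and 5.14 CPM in knockouts and 4.98, 8.20, 14.1 and 13.6 CPM in controls. Orc6 had 15.8, 15.8, 18.8 and 14.5 CPM in knockouts and 14.2, 16.8, 13.7 and 14.7 CPM in controls. The groups overlapped in these licensing and helicase genes. Pola1 had 8.40, 12.9, 9.73 and 8.24 CPM in knockouts and 8.13, 8.41, 11.3 and 10.3 CPM in controls. Pola2 had 19.2, 13.7, 21.4 and 17.5 CPM in knockouts and 15.6, 26.2, 16.9 and 19.9 CPM in controls. Pcna had 30.02, 42.2, 34.4 and 29.7 CPM in knockouts and 35.9, 43.2, 51.8 and 30.2 CPM in controls. They overlapped here too. Lig1 had 7.59, 7.62, 10.9 and 8.20 CPM in knockouts and 7.67, 10.5, 10.7 and 9.66 CPM in controls. Chaf1b had 1.65, 0.197, 2.61 and 1.32 CPM in knockouts and 0.515, 1.31, 1.92 and 0.625 CPM in controls. Rrm1 had 36.9, 34.5, 44.9 and 35.7 CPM in knockouts and 32.1, 41.1, 32.3 and 38.4 CPM in controls. Again the ranges met. Ccne2 had 5.50, 10.9, 5.32 and 6.07 CPM in knockouts and 4.64, 3.36, 5.41 and 4.81 CPM in controls. Knockout 4 was the highest, and the groups overlapped.

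**Figure D4:**
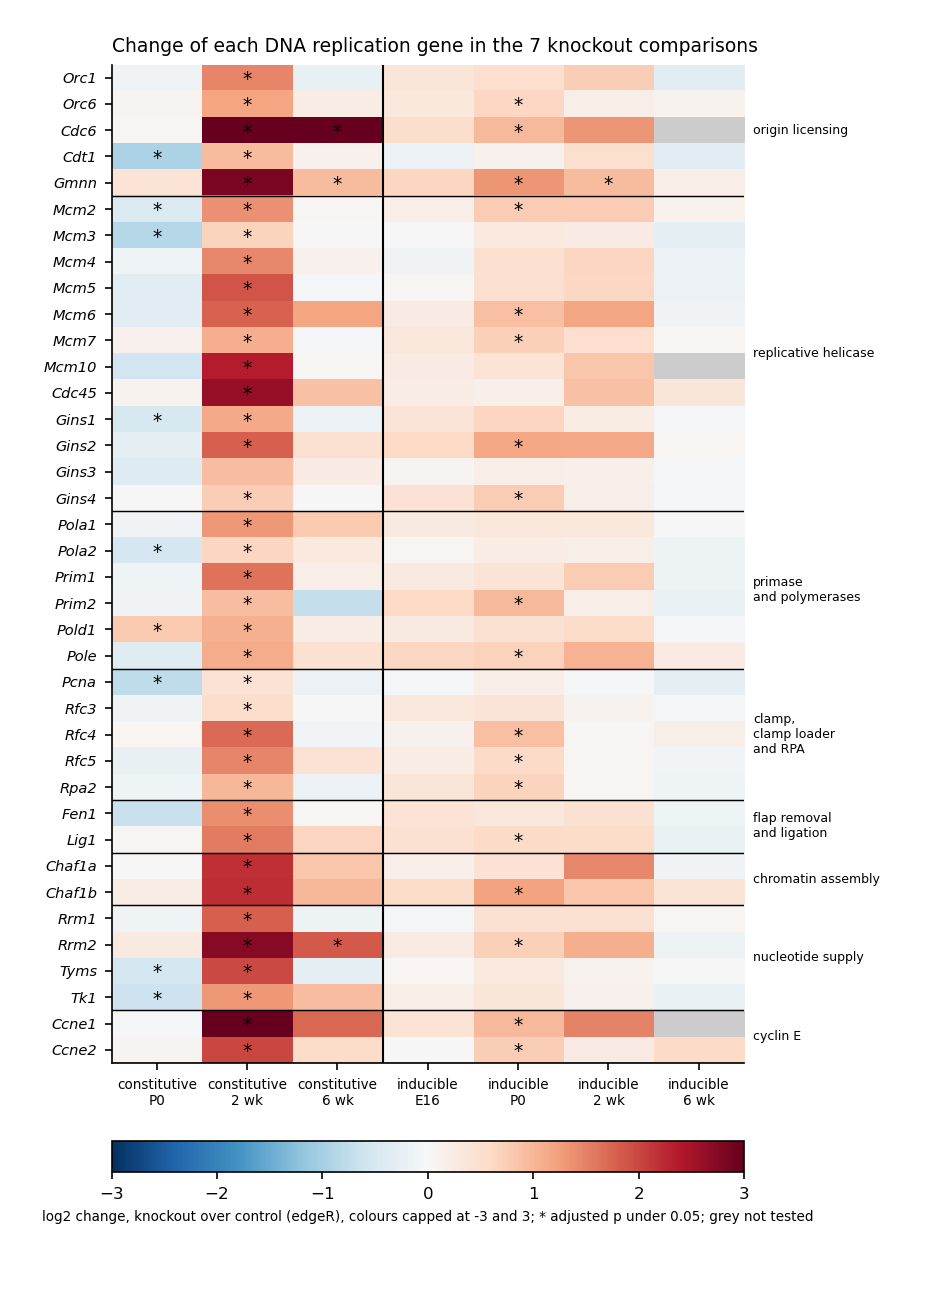
Log2 change of each of the 38 replication genes (rows, in the order of their roles) in the 7 knockout comparisons (columns), from edgeR, with * at an adjusted p under 0.05 and grey where a gene was not tested. The column of constitutive knockouts at 2 weeks holds 37 marks, that of inducible knockouts at P0 holds 18, and those of inducible knockouts at E16 and 6 weeks hold none.

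Over the 7 knockout comparisons Gmnn was called higher in 4 and Cdc6 and Rrm2 in 3 each. A further 16 genes were called higher in 2 comparisons, 18 in 1 and Gins3 in none. Of all genes 0% (inducible E16) to 24.4% (constitutive 2 weeks) were called higher in single comparisons. Repeated calls were not counted over all genes. Of the genes called lower at P0 in the constitutive model, Mcm2 was called higher in inducible knockouts at the same age. Some values carry a limit of the annotation. Of the GENCODE exon bases of Fen1, the flap nuclease, 84.2% are shared with Gm10143 and Tmem258. For Gins2 the share is 67.3% with Gse1 and for Chaf1a 52.5% with Ubxn6. The deposited counts rest on gene models that can differ from these. Chaf1a has a length of 3308 bases there and 8854 exon bases in GENCODE. How reads from shared bases were counted is not known.

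The effects of the 2 models differed by age in opposite directions. At P0 the constitutive effect was lower than the inducible effect in 23 of the 38 genes and higher in none (median difference of log2 changes -0.77, all genes -0.04, of which 16.9% were called lower and 14% higher). The smallest adjusted p were those of Mcm2 (difference -1.16 ± 0.17, edgeR adjusted p = 0.000267), Mcm6 (-1.21 ± 0.18), Gins2 (-1.39 ± 0.26), Pole (-1.02 ± 0.19) and Tyms (-0.79 ± 0.16). This count depended on the setting, with 10 under library totals alone, 4 in a fit of all 50 libraries and 12 to 24 with 1 library left out (12 without constitutive control 69 or knockout 73). For these settings the share of all genes called is not given. At 2 weeks the constitutive effect was higher in 16 genes and lower in none (median 0.92, all genes -0.01, of which 16.6% were called higher and 14.7% lower), with 8 to 20 when 1 library was left out (8 without constitutive knockout 89). The smallest adjusted p were those of Tyms (1.86 ± 0.25, adjusted p = 2.67e-05), Gmnn (1.86 ± 0.27), Ccne2 (1.73 ± 0.28), Rrm1 (1.31 ± 0.22) and Rfc5, a clamp loader subunit (1.40 ± 0.26). At 6 weeks edgeR called none, with 6 at an unadjusted p under 0.05 and 1 by DESeq2, among 2.54% of all genes higher and 2.41% lower. The models differ in Cre form, in tamoxifen and in the time of recombination, which cannot be told apart here. The summed levels of the 2 sets of controls at 2 weeks did not overlap, at 718 to 869 CPM in the constitutive and 482 to 579.5 CPM in the inducible model.

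**Figure D5:**
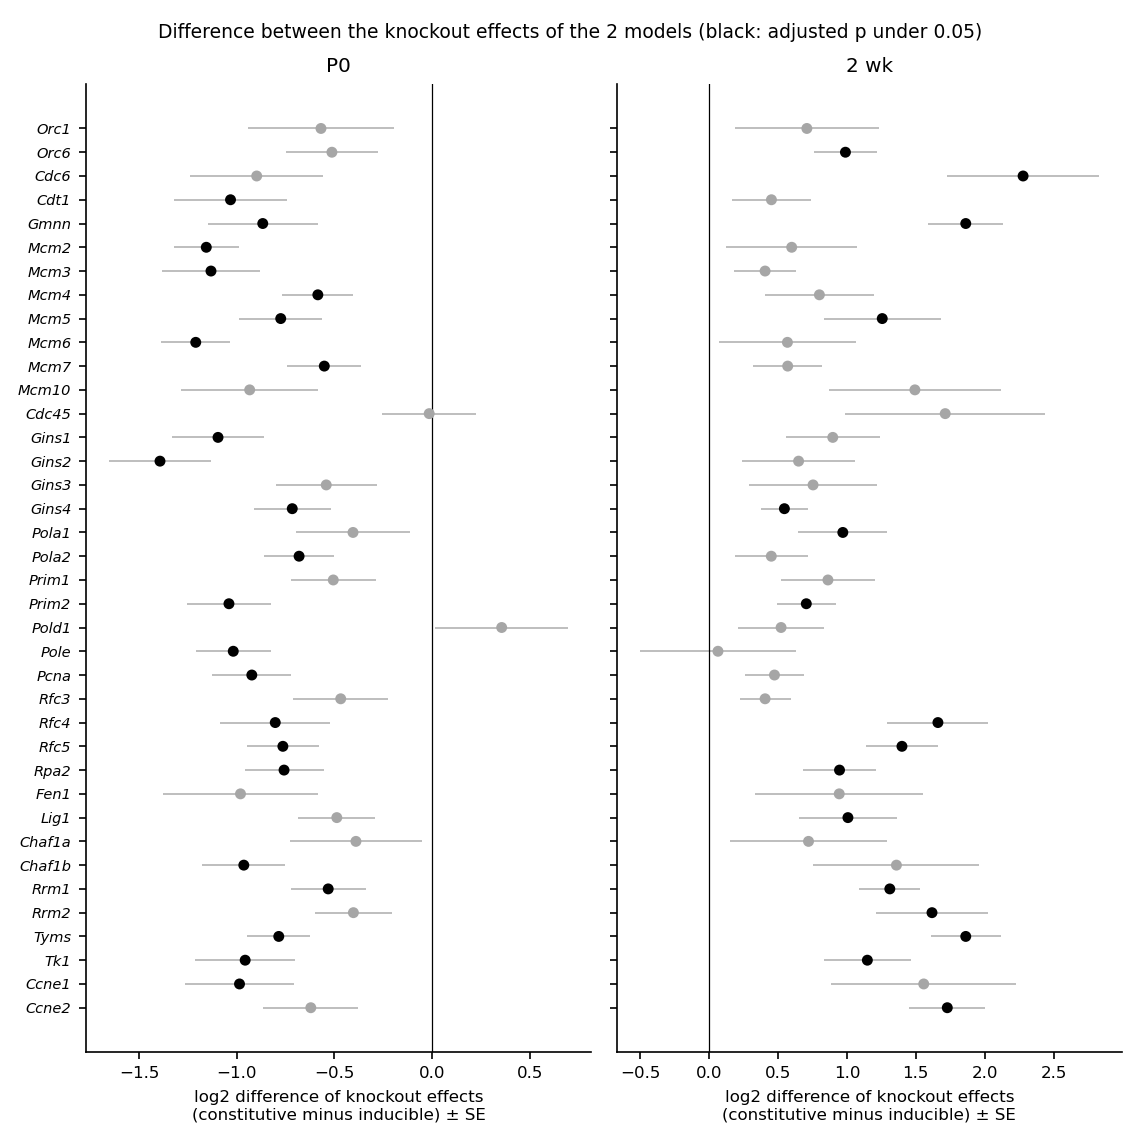
Difference between the knockout effects of the 2 models (constitutive minus inducible, log2, horizontal axis) for each replication gene at P0 (left) and 2 weeks (right), with bars of ± SE and black points at an adjusted p under 0.05. At P0 37 of the 38 points lie below 0, and at 2 weeks all 38 lie above it.

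Within the constitutive model the effect at 2 weeks was higher than that at P0 in 37 of the 38 genes (median difference 1.66, all genes 0.11, of which 21.7% were called higher and 9.07% lower). Tyms (2.44 ± 0.17, edgeR adjusted p = 1.08e-07), Gmnn (2.34 ± 0.23), Rrm1 (1.83 ± 0.19), Mcm6 (2.05 ± 0.22) and Rrm2 (2.40 ± 0.26) had the smallest adjusted p, and the gene not called was Pold1. The effect at 6 weeks was lower than that at 2 weeks in 22 genes and higher in none (median -1.20, all genes 0.01, of which 9.92% were called lower and 5.88% higher), led by Tyms (-2.28 ± 0.20, adjusted p = 1.97e-05), Rrm1 (-1.95 ± 0.20), Mcm5 (-1.94 ± 0.32), Mcm4 (-1.33 ± 0.22) and Gmnn (-1.87 ± 0.32). Without knockout 89 that count was 10.

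Other genes of the pathway were read from lists of 41 further replication genes, 26 genes that control entry into S phase and 8 genes of mitosis. In constitutive knockouts at 2 weeks 29 of the 41 were called higher and 1 lower (median 0.91), 15 of the 26 higher and 2 lower (median 0.68), and 8 of the 8 mitosis genes higher (median 2.51), where 24.4% of all genes were called higher and 17.8% lower. The mitosis genes Mki67 (2.05 ± 0.12, adjusted p = 3.15e-06), Ccnb2 (3.07 ± 0.18), Aurkb (2.64 ± 0.18) and Cdk1 (1.66 ± 0.14) led their list. Of the further replication genes, topoisomerase Top2a (2.07 ± 0.14), histone chaperone Asf1b (3.01 ± 0.22), the dUTPase Dut (2.71 ± 0.21) and the nuclease Dna2 (2.39 ± 0.20) led, and Ctc1, a subunit of a complex that works with polymerase alpha at telomeres, was the gene called lower (-1.05 ± 0.13). Among the S phase regulators E2f8 (2.70 ± 0.20), Ccna2 (2.72 ± 0.22), Ccnd2 (6.55 ± 0.52) and Tfdp1 (1.99 ± 0.18) led, E2f1, an activator of these genes, changed by 1.87 ± 0.20, and E2f3 (-1.0 ± 0.15) and Cdk6 (-0.61 ± 0.18) were called lower. The D-type cyclin Ccnd2 had 39.8 and 26.5 CPM in knockouts and 0.0508, 0.288, 0.816 and 0.244 CPM in controls.

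In constitutive knockouts at 6 weeks Ccnd2 (4.12 ± 0.47), Tfdp1 (0.65 ± 0.14), Ccna2 (1.35 ± 0.34), E2f1 (1.20 ± 0.31), E2f8 (2.57 ± 0.72), Dna2 (1.97 ± 0.35), the nucleoside kinase Dck (0.50 ± 0.14), Top2a (0.96 ± 0.28), Mki67 (1.58 ± 0.29) and Aurkb (1.87 ± 0.35) were called higher and Cdk6 lower (-0.83 ± 0.12). These were among 3 of 41, 6 of 26 and 2 of 8 genes called higher in the 3 lists, where 6.76% of all genes were called higher, so the share of the 41 lay near that of all genes. At P0 in the same model 0 of 41, 4 of 26 and 0 of 8 were called higher and 8, 4 and 1 lower. Among all genes 21.4% were called higher and 20.2% lower there, so these shares lay near or under those of all genes. Those with the smallest adjusted p were Dna2 (-2.01 ± 0.17, adjusted p = 2.13e-05), Ctc1 (-1.001 ± 0.17), Pold4, a small subunit of polymerase delta (-1.05 ± 0.21), and Topbp1, which helps origins fire (-0.61 ± 0.14), and, among the regulators, Ccnd2 (1.44 ± 0.16), Ccnd3 (0.99 ± 0.15), Rbl1 (-0.93 ± 0.14) and Cdk6 (-1.14 ± 0.18), with Cdk1 (-0.50 ± 0.14) the mitosis gene. E2f1, E2f8, Top2a and Mki67 were not called there (-0.27 ± 0.15, -0.14 ± 0.21, -0.12 ± 0.16 and -0.39 ± 0.16).

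In inducible knockouts at P0 9 of 41 were called higher and 1 lower, 3 of 26 higher and 4 of 8 higher, where 6.81% of all genes were called higher and 3.56% lower. Asf1b (0.99 ± 0.15), the histone chaperone Nasp (0.94 ± 0.14), Pole3, a small subunit of polymerase epsilon (0.81 ± 0.14), Ccna2 (0.65 ± 0.14), E2f6 (0.53 ± 0.15), Rbl2 (0.62 ± 0.18), Ccnb2 (0.90 ± 0.14), Bub1 (0.67 ± 0.14), Cdk1 (0.59 ± 0.15) and Ccnb1 (0.62 ± 0.18) were called higher, and Ctc1 was the gene called lower (-0.78 ± 0.16). The proliferation marker Mki67 stood at 0.28 ± 0.13, with Top2a at 0.18 ± 0.16, E2f1 (0.73 ± 0.24, edgeR adjusted p = 0.0714) and E2f8 (0.56 ± 0.17, adjusted p = 0.0543), none of them called. At 2 weeks Dna2 (1.04 ± 0.20), E2f3 (0.56 ± 0.10) and Ccnb1 (1.48 ± 0.36) were called higher, 1 of each list where 1.11% of all genes were, while E2f1 (0.54 ± 0.23), E2f8 (1.00 ± 0.33), Top2a (1.07 ± 0.43) and Mki67 (1.31 ± 0.50) were not. No gene of the 3 lists was called at E16 (E2f1 0.50 ± 0.28, E2f8 -0.02 ± 0.25, Top2a 0.08 ± 0.14, Mki67 -0.12 ± 0.16) or at 6 weeks (E2f1 -0.26 ± 0.41, Top2a 0.09 ± 0.41, Mki67 1.55 ± 0.57, with E2f8 too low to be tested).

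Since these genes moved together in constitutive knockouts at 2 weeks, their promoters were read for the letters that E2F factors bind. RefSeq promoter windows (GRCm38.p6, 250 bases before to 50 after the start) were found for 30 of the 38, and not for Gmnn, Mcm4, Gins1, Gins2, Gins4, Prim2, Pole and Ccne2. The letters searched, on both strands, were TTTCCCGC, TTTGGCGC, TTTCGCGC and TTTGCCGC, and neighbouring matches on opposite strands may overlap. They were in 12 of the 30 windows (40.0%), in 704 of those of 27025 genes (2.6%) and in 548 of those of 16521 protein-coding genes (3.3%). By role they were in 3 of 4 windows of licensing genes, 5 of 8 of helicase genes and 2 of 4 of primase and polymerase genes, and in 0 of 4 of nucleotide supply genes. The letters TTTGAA, part of the element known from mitotic genes, were in 4 of 30 (13.3%), against 20.2% of all genes and 17.6% of protein-coding genes. To show a promoter of either kind, the 160 bases before the start follow for 3 genes with E2F letters (in capitals, read on the gene's strand, so a match on the other strand appears as its complement) and for 2 nucleotide supply genes with none. They are chr1:128359706-128359865 (Mcm6, minus strand), chr8:75109349-75109508 (Mcm5, plus strand), chrX:93632156-93632315 (Pola1, minus strand), chr7:102441535-102441694 (Rrm1, plus strand) and chr5:30073626-30073785 (Tyms, minus strand).
Mcm6: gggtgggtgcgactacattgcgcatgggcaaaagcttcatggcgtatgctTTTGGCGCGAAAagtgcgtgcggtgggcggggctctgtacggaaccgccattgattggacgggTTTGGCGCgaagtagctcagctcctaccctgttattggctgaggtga
Mcm5: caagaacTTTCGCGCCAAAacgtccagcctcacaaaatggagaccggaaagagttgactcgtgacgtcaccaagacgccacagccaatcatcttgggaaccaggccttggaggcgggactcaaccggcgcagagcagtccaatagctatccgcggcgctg
Pola1: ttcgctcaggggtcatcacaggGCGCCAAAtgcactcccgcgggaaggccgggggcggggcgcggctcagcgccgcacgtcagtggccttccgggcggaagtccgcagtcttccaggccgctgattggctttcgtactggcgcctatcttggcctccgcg
Rrm1: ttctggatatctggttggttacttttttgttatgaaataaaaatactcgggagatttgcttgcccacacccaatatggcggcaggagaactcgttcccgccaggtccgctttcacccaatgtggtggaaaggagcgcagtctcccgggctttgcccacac
Tyms: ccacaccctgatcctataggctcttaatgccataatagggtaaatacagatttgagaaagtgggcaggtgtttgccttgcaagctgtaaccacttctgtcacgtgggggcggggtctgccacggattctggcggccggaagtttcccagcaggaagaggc
In Mcm6 the letters lie 110, 106 and 47 bases before the start, in Mcm5 153 and 149 and in Pola1 138. In constitutive knockouts at 2 weeks the 12 genes with such letters had a median log2 change of 1.20, with 11 called higher, and the 18 without a median of 1.67, with 18 called higher. In inducible knockouts at P0 the medians were 0.47 and 0.44, with 4 of 12 and 8 of 18 called higher. A match is a description of the letters and no evidence of binding.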

How the data were processed

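Total RNA of sorted microglia was made into cDNA with the SMARTer v4 kit and into libraries with Nextera XT, which do not keep the strand, per the labels' protocols. CASAVA 1.8.2, STAR 2.5.2b, GRCm38, featureCounts 1.5.1 of Subread and limma 3.28.21 are named in the submitters' processing notes. The authors deposited counts per gene, which were tested as deposited, together with CPM, which equal the count over the library total for 2426300 of 2426300 values (within 1e-05 CPM). The authors' log2 table was not used. Genes with no symbol, 0.058% of counts, were kept in the tests under their Ensembl identifiers.

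Each of the 17 comparisons was fitted with edgeR 4.0.16 (R 4.3.3) on its own groups, with filterByExpr, TMM factors, the robust quasi-likelihood test and Benjamini-Hochberg adjustment over all genes tested. Differences between effects were interaction terms. The fits were tested on simulated data. DESeq2 1.42.0, RLE factors, no filter, a fit of all 50 libraries, library totals alone and each library left out were the alternatives. Named are the highest gene or genes of each role, up to 4 called genes with the smallest adjusted p in a knockout comparison, every called gene where 10 or fewer were called, up to 5 in age comparisons and interactions, up to 4 of each pathway list, E2f1, E2f8, Top2a and Mki67; a few genes that this rule or the marker lists would name are not reported here. Members and lists were chosen with earlier results of these data known, and Gins3, Mpo, Prim2 at 6 weeks, the genes called without 1 library and the largest and smallest changes were named after their values were seen. The 67 pairs of libraries of a group differed by 9.98 to 214 times the sampling noise (chi-square per gene), so none was a copy. The labels give animal numbers and no batch, litter or sex.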

Additional observations from a re-analysis of the deposited data

Results flagged for a closer look

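In 7 of 152 sets of 4 libraries of a named gene and group, 1 library lay apart from the other 3 by Dixon's test, where chance gives about 1 in 20. They were inducible knockout 53 at P0 with 98.58 CPM of Gmnn (others 62.97 to 67.53), inducible knockout 6 at 2 weeks with 26.28 CPM of Pcna (others 41.7 to 42.83), inducible knockout 4 at 6 weeks with 10.91 CPM of Ccne2 (others 5.318 to 6.074), constitutive control 83 at 2 weeks with 17.96 CPM of Prim1 (others 13.18 to 13.68) and 63.21 CPM of Mcm2 (others 36.9 to 39.09), constitutive control 77 at 2 weeks with 1.424 CPM of Ccne1 (others 3.326 to 3.575) and 1 constitutive control at 6 weeks with 51.45 CPM of Mcm3 (others 62.13 to 62.79).

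Differences between effects passed edgeR's interaction test as follows. The constitutive effect was lower than the inducible effect at P0 in 23 of the 38 genes, among them Mcm2 (-1.156), Mcm6 (-1.21), Gins2 (-1.393), Pole (-1.018) and Tyms (-0.785). It was higher at 2 weeks in 16, among them Tyms (1.862), Gmnn (1.862), Ccne2 (1.728), Rrm1 (1.311) and Rfc5 (1.399). Within the constitutive model the effect at 2 weeks was higher than at P0 in 37, among them Tyms (2.436), Gmnn (2.34), Rrm1 (1.832), Mcm6 (2.049) and Rrm2 (2.398). The effect at 6 weeks was lower than at 2 weeks in 22, among them Tyms (-2.278), Rrm1 (-1.945), Mcm5 (-1.944), Mcm4 (-1.33) and Gmnn (-1.872).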

How the results depend on the processing

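The counts in this section are of replication genes, and the shares of all genes called in each setting are not given with them. With RLE factors the counts of called genes stayed within 1.5 times in all 17 comparisons. With library totals alone, chosen after seeing the data, 6 replication genes were called higher and 3 lower in constitutive knockouts at P0 (1 and 8 with TMM), 2 higher in inducible knockouts at 2 weeks (1 with TMM), 1 higher in inducible controls at 6 weeks against 2 weeks (0 with TMM) and 10 lower in the constitutive minus inducible effect at P0 (23 with TMM). Library totals moved the median over all genes from 0.04 to 0.40 in constitutive knockouts at P0, from 0.12 to 0.24 in inducible knockouts at E16, from -0.07 to -0.37 and from -0.06 to -0.28 in constitutive and inducible controls at 2 weeks against P0, from -0.04 to 0.30 in the constitutive minus inducible effect at P0 and from 0.11 to -0.18 in the constitutive effect at 2 weeks minus P0.

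Without a filter 5 genes were called higher and 1 lower in constitutive knockouts at 6 weeks, and 13 higher in inducible knockouts at 2 weeks. DESeq2 called 7 higher and 1 lower, and 7 higher, in those comparisons, 1 higher in inducible controls at 6 weeks against 2 weeks and 1 higher in the constitutive minus inducible effect at 6 weeks. In a fit of all 50 libraries 2 were higher and 3 lower in constitutive knockouts at P0, 7 higher and 1 lower in constitutive knockouts at 6 weeks, 2, 8 and 3 higher in inducible knockouts at E16, P0 and 2 weeks, 1 higher in inducible controls at 6 weeks against 2 weeks, 4 lower in the constitutive minus inducible effect at P0 and 2 higher in that at 6 weeks.

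With each library left out in turn, constitutive knockouts had 0 to 1 genes higher and 4 to 9 lower at P0 (0 without knockout 68, 4 without knockout 73), 34 to 37 higher at 2 weeks and 2 to 3 at 6 weeks. Inducible knockouts had 0 to 3 higher at E16 (3 without knockout 1), 9 to 17 at P0 (9 without control 55), 0 to 15 at 2 weeks (4 without control 4, 15 without knockout 6 and 0 without any other library) and 0 at 6 weeks. Controls had 26 to 33 (constitutive) and 37 to 38 (inducible) lower at 2 weeks against P0, and 22 to 27 and 5 to 8 lower at 6 weeks against 2 weeks, where 0 to 1 was higher in the inducible model (5 lower without control 1 or 4 of 2 weeks or control 10 of 6 weeks). The constitutive minus inducible effect was lower in 12 to 24 at P0 (12 without constitutive control 69 or knockout 73), higher in 8 to 20 at 2 weeks (8 without constitutive knockout 89) and in 0 to 2 at 6 weeks. The constitutive effect was higher in 33 to 37 at 2 weeks minus P0, and lower in 10 to 22 at 6 weeks minus 2 weeks (10 without knockout 89). With 1 knockout left at 2 weeks, that library was assumed to vary like the controls. The cause of these moves was not tested.

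The changes of Ctc1, E2f3 and Cdk6 in constitutive knockouts at 2 weeks and of Ctc1 in inducible knockouts at P0 were not run under the alternatives. Among the other changes given for single genes there were 17 turns in sign, with each alternative counted apart. In constitutive knockouts at P0 these were E2f1 (0.092), E2f8 (0.212), Top2a (0.23) and Hdac2 (0.07) with library totals, E2f8 (0.077) and Top2a (0.094) with all 50 libraries, Hdac1 without knockout 68 (-0.742, up to 0.537 without another library) and Top2a without knockout 73 (0.008, down to -0.26). The others were Hdac2 in constitutive knockouts at 2 weeks without knockout 80 (0.164, against -0.806 without knockout 89), Hdac1 at 6 weeks without knockout 380 (-0.752, up to 1.685), E2f8 at E16 with library totals (0.067) or without knockout 1 (0.226), control 5 (0.021) or control 6 (0.028), down to -0.238, Top2a at E16 without knockout 8 (-0.043, up to 0.14), and Top2a in inducible knockouts at 6 weeks without control 10 (-0.086) or knockout 6 (-0.275, up to 0.363). No paired analysis was possible because the groups compared share fewer than 2 replicate numbers. Genes near 0 counts at 6 weeks (Cdc6, Mcm10, Ccne1) were limited by depth.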
